A study of Mus musculus with 6 samples.

Results

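The MHC class II presentation genes described here are Cd74, H2-Aa, H2-Ab1, H2-Eb1 and Ctss. They were measured on whole-transcript arrays in LKS-Slam cells, bone marrow cells with Kit and Sca-1 but without lineage markers, refined by SLAM antigens, a gate rich in hematopoietic stem cells. All 5 genes were found, each through 1 probe set that the platform annotation gives to that symbol alone, among 10366 genes with such a probe set. They were selected on measured values, namely the differences between the arrays labelled Zeb2-KO and WT seen in an earlier analysis of these arrays, so their group differences are given as a description, without a test.

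The mice of the group labelled Zeb2-KO carried floxed Zeb2 alleles (Zeb2 fl/fl) and Mx1-Cre, a recombinase under an interferon-inducible promoter that is active in many cell types besides blood cells. The WT mice are labelled C57Bl/6, and the labels give no strain background for the other group and no Cre in WT. Both groups were injected with pIC, which induces interferon, when 6 weeks old, and marrow was collected 8 weeks afterwards, at an age of 14 weeks. Each group had 3 arrays, each from a separate biological replicate per the labels. The question put to the arrays is how transcripts of stem cell-rich marrow change once Zeb2, which encodes a zinc-finger repressor, has been deleted in adult mice.

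MHC class II molecules are heterodimers of an alpha and a beta chain that show peptides from endosomes to CD4 T cells. The chains assemble around the invariant chain, the product of Cd74, which fills the peptide groove and directs the complex to endosomes. There proteases, cathepsin S (Ctss) among them, trim the invariant chain to a short peptide, which H2-DM then exchanges for antigen. H2-Aa and H2-Ab1 encode the chains of I-A, and H2-Eb1 encodes the beta chain of I-E, which C57BL/6 mice do not assemble because they lack a working alpha chain gene. B cells, dendritic cells and macrophages are the cells best known for class II, and its genes share promoter elements, the X and Y boxes, that are bound by RFX, CREB and NF-Y factors and served by the coactivator Ciita.

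The start sites of 3 of the 5 genes, H2-Aa, H2-Eb1 and Ctss, had an entry in the RefSeq promoter table (GRCm38.p6, 250 bases before to 50 after the start site), and H2-Ab1 and Cd74 are named only. The 250 bases before each start site are printed 5′ to 3′ on the strand of the gene because they show what the chain genes share and the protease gene does not. In H2-Aa (chr17:34287824-34288073, minus strand) and H2-Eb1 (chr17:34305617-34305866, plus strand) capitals mark GCAAC, the core of an X box, and GATTGG, a Y box, while in Ctss (chr3:95526536-95526785, plus strand) capitals mark GAAA, any 2 bases and GAAA again, the spaced repeat of interferon regulatory factor elements.
H2-Aa: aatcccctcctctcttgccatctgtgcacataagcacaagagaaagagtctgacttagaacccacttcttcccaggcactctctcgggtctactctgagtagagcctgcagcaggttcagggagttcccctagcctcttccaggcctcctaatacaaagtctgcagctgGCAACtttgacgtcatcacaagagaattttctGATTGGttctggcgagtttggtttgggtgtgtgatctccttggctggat
H2-Eb1: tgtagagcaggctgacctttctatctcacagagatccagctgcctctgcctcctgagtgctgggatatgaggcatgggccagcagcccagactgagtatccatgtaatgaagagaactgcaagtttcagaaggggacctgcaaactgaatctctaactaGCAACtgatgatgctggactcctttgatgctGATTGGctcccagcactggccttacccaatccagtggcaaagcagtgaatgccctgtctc
Ctss: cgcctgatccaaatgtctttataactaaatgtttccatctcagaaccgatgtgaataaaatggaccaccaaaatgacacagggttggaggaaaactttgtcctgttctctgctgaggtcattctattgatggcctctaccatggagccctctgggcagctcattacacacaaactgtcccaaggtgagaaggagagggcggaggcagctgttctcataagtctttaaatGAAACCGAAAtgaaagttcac

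GCAAC followed by GATTGG on the same strand, with 15 to 40 bases between them, was found in both chain genes and not in Ctss. Both strands of the whole 300-base windows were searched, and 0.435% of 32851 promoter windows held that pair. The letters and the spacing were chosen after the sequences had been read. GCAAC alone was in 35.2% of all windows and GATTGG alone in 16.1%. The pair began 81 bases before the start site in H2-Aa and 91 bases before it in H2-Eb1. The spaced GAAA repeat was found in Ctss alone of the 3 windows, and 3.44% of all windows held it. The E-box CACCTG, to which ZEB factors are known to bind, was in none of the 3 windows, and 20.2% of all windows held it on either strand. Shorter forms of this E-box were not searched. Of 15 other pathway genes with a promoter entry 3 held CACCTG, Ifi30, Marchf1 and H2-DMa, against 22.6% of all genes. Among 18 other pathway genes measured, 15 had a promoter entry, and the pair stood in 3 of these, H2-Oa and H2-Ob, which encode the chains of H2-DO, and H2-Eb2, a second beta chain gene. Their elements are set beside those of the members, from 8 bases before GCAAC to 4 bases after GATTGG, to show the spacing, which is 27 bases in H2-Aa and H2-Oa, 26 in H2-Eb1 and H2-Eb2 and 24 in H2-Ob (H2-Aa chr17:34287863-34287912, minus strand; the others on the plus strand, H2-Eb1 chr17:34305768-34305816, H2-Oa chr17:34092295-34092344, H2-Eb2 chr17:34325535-34325583 and H2-Ob chr17:34238810-34238856).
H2-Aa: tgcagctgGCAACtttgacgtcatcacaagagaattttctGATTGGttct
H2-Eb1: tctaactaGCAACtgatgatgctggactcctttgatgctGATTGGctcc
H2-Oa: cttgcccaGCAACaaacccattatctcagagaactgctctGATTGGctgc
H2-Eb2: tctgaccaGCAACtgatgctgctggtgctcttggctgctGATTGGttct
H2-Ob: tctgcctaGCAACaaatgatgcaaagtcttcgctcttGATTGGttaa

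Zeb2 itself ran against the labels. Its log2 intensity was 8.63 ± 0.73 where Zeb2-KO is the label and 7.14 ± 0.49 in WT (SD, n = 3), which is higher by 1.48 (0.77 when the interquartile range described next was a covariate) and did not pass (limma adjusted p = 0.581). The arrays labelled Zeb2-KO stood at 7.79, 9.13 and 8.96 against 6.58, 7.51 and 7.34 in WT. The groups did not overlap, and 6.9% of all probe sets lay higher in that way. With 1 array left out the Zeb2 difference ran from 1.20 to 1.90. The 1 probe set of Zeb2 may lie outside the deleted part, which the labels do not name, so it does not check the deletion, and every direction below rests on the labels alone. The fit covered 14610 probe sets, of which 2 (0.0137%) had an adjusted p under 0.05, and the median difference over all of them, arrays labelled Zeb2-KO minus WT, was -0.09 on the log2 scale. The interquartile range of log2 values, a measure of how spread an array is, was 1.83 to 2.40 where Zeb2-KO is the label and 1.59 to 2.03 in WT. Spread and label are thus partly tied. A fit with this covariate may take out part of a group difference, so its values are not corrected effects. Of 11 genes listed for the sorting gate 8 were measured, without Ly6a (Sca-1), and 5 lay lower and 3 higher (median -0.43, or -0.20 with 5 lower when that range was a covariate). Cd48, an antigen that SLAM gates commonly select against, stood at 6.79, 6.86 and 5.72 in the arrays labelled Zeb2-KO against 7.19, 7.70 and 7.55 in WT, a difference of -1.02 without overlap (-0.65 without replicate 3 labelled Zeb2-KO). Ptprc (CD45), carried by nearly all blood cells, lay at -0.75, also without overlap. Slamf1 (CD150), for which they commonly select, stood at 8.31, 9.01 and 8.30 against 5.76, 8.02 and 7.94 in WT, so the groups did not overlap and WT replicate 1 stood apart, without which the difference of 1.30 was 0.56. None of the 8 passed (limma adjusted p = 0.656 for Cd48, 0.662 for Ptprc and 0.673 for Slamf1). An unadjusted p under 0.05 (limma) was found in 2 lower and 1 higher gene, against 1.33% and 5.69% of all probe sets. Groups did not overlap in 3 lower and 2 higher genes, against 6.26% and 6.9% of all probe sets. The part of the gate in the class II values was not tested.

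All 5 class II presentation genes lay lower in the arrays labelled Zeb2-KO, with a median difference of -0.76 on the log2 scale (arrays labelled Zeb2-KO minus WT, as for all differences that follow). Ctss and Cd74 lay lowest relative to WT, at 2.17-fold and 1.97-fold below it, and H2-Aa was nearest to WT, at 1.22-fold below. For 3 of the 5 genes, Cd74, H2-Eb1 and Ctss, no array labelled Zeb2-KO reached the lowest WT array. Over all probe sets, 6.26% lay lower without overlap and 55.4% lay lower at all, and nothing is read from the members' counts, since this comparison chose them.

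**Figure D1:**
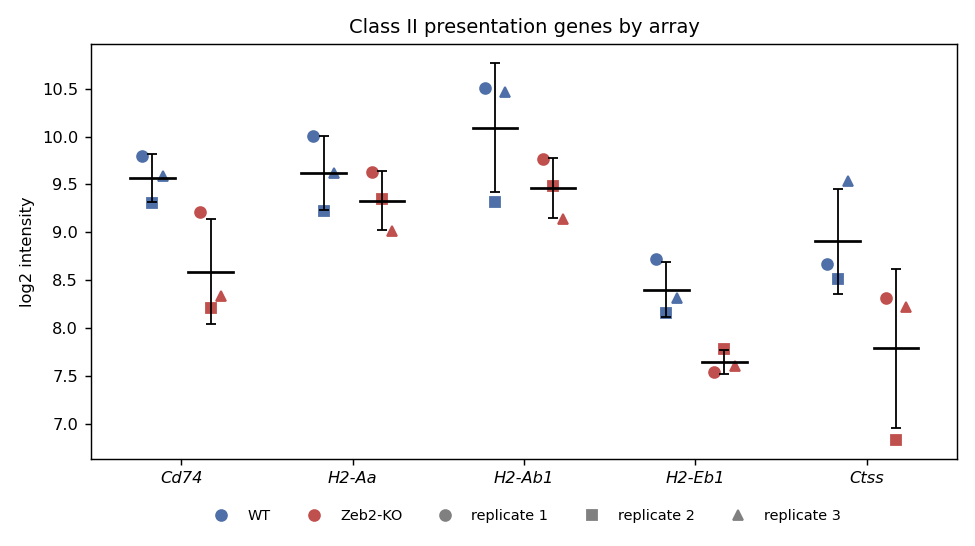
Log2 intensity (vertical axis) of the 5 class II presentation genes in each array, WT in blue and Zeb2-KO as labelled in red, with the replicate number as the point's shape, the group mean as a wide bar and the SD of 3 arrays as the error bar. Cd74, H2-Eb1 and Ctss do not overlap between groups, H2-Aa and H2-Ab1 do, and levels of different genes cannot be compared because each has its own probes.

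Cd74, which encodes the invariant chain, had log2 intensities of 9.22, 8.22 and 8.34 in replicates 1 to 3 labelled Zeb2-KO against 9.80, 9.31 and 9.59 in WT. Replicate 1 labelled Zeb2-KO came within 0.1 of the lowest WT array, and the other two arrays of its group lay about a full log2 unit below. The group values were 8.59 ± 0.55 and 9.57 ± 0.25 (SD, n = 3), a difference of -0.98 (SE 0.34).

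H2-Aa, the alpha chain of I-A, stood at 9.63, 9.35 and 9.01 in the arrays labelled Zeb2-KO against 10.00, 9.23 and 9.62 in WT. The groups overlapped, WT replicate 2 being lower than 2 of the arrays labelled Zeb2-KO. The difference of -0.28 (SE 0.31) was smaller than the SD of either group, 0.31 and 0.39.

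H2-Ab1, the beta chain that pairs with it, stood at 9.76, 9.49 and 9.14 in the arrays labelled Zeb2-KO against 10.50, 9.31 and 10.46 in WT. The WT group was split, with replicate 2 more than a log2 unit below the other two and inside the range of the arrays labelled Zeb2-KO. The group values were 9.46 ± 0.31 and 10.09 ± 0.67 (SD, n = 3), a difference of -0.63 (SE 0.37), which came to -1.02 without WT replicate 2.

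H2-Eb1, the beta chain of I-E, had the tightest values of the 5 genes, at 7.55, 7.79 and 7.61 in the arrays labelled Zeb2-KO against 8.72, 8.16 and 8.32 in WT. The groups did not overlap, and the gap between them was wider than the whole range of the arrays labelled Zeb2-KO. The difference was -0.76 (SE 0.28), or 1.69-fold, between 7.65 ± 0.12 and 8.40 ± 0.29 (SD, n = 3).

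Ctss, the cathepsin that trims the invariant chain, stood at 8.31, 6.84 and 8.22 in the arrays labelled Zeb2-KO against 8.67, 8.51 and 9.53 in WT. Replicate 2 labelled Zeb2-KO lay far below all other arrays, and WT replicate 3 far above. The group values were 7.79 ± 0.83 and 8.91 ± 0.55 (SD, n = 3), a difference of -1.12 (SE 0.44), which came to -0.64 without replicate 2 labelled Zeb2-KO and to -1.38 without replicate 1 of that group.

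The members differed in how they varied between arrays of 1 group, a measure that leaves out the group difference by which they were chosen. Deviations from the group mean spanned 0.56 in H2-Eb1, 0.77 in H2-Aa, 0.998 in Cd74, 1.19 in H2-Ab1 and 1.58 in Ctss on the log2 scale. All 5 genes lay below the group mean in WT replicate 2. In WT replicate 1, WT replicate 3 and replicate 1 labelled Zeb2-KO 4 of the 5 lay above it, the exceptions being Ctss in the first and H2-Eb1 in the other two. Replicates 2 and 3 labelled Zeb2-KO were mixed, with 2 and 4 genes below. In replicate 3 labelled Zeb2-KO Ctss was 0.43 above the group mean and the other 4 genes lay below it.

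The profiles over the 6 arrays were compared after each gene was centred on its own mean, by the root mean square difference, which is 0 for identical profiles and in log2 units. H2-Aa and H2-Ab1, the chains of 1 heterodimer, were the nearest pair at 0.28, followed by H2-Aa and H2-Eb1 at 0.32. Cd74 stood 0.38 to 0.41 from the chains. Ctss was farthest from the others, at 0.49 from Cd74 and 0.65 to 0.75 from the chains. These distances include the group difference that chose the members. They also grow with how widely a gene varied, so nothing is read from the order of the pairs.

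Among 5245 other genes at or above the median intensity, the 8 whose profile was nearest to the mean of the members were S1pr1 (root mean square difference 0.081), Il4ra (0.092), Stk17b (0.11), Prkcb (0.12), Mroh5 (0.13), B3gnt2 (0.14), Ifnl2 (0.14) and Il9r (0.15). In this order the 8 genes lay at -0.77, -0.77, -0.92, -0.93, -0.55, -0.62, -0.55 and -0.55. With the interquartile range as a covariate they lay at -0.41, -0.53, -0.63, -0.59, -0.15, -0.23, -0.10 and -0.099. S1pr1 encodes a sphingosine-1-phosphate receptor of lymphocyte egress, Il4ra a subunit of the interleukin-4 receptor and Prkcb a protein kinase C that signals from the B cell receptor. The others are named only. S1pr1 stood at 7.59, 6.92 and 6.998 in the arrays labelled Zeb2-KO against 8.08, 7.65 and 8.09 in WT, without overlap. This likeness is over 6 arrays and includes the group difference that chose the members, so nothing is read from the lack of overlap in S1pr1. Cd74 was the nearest member to the members' mean profile, at 0.21. The 8 genes were nearer, but they were picked as the nearest of 5245 and the members were not picked by profile. Nothing is read from that order.

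**Figure D2:**
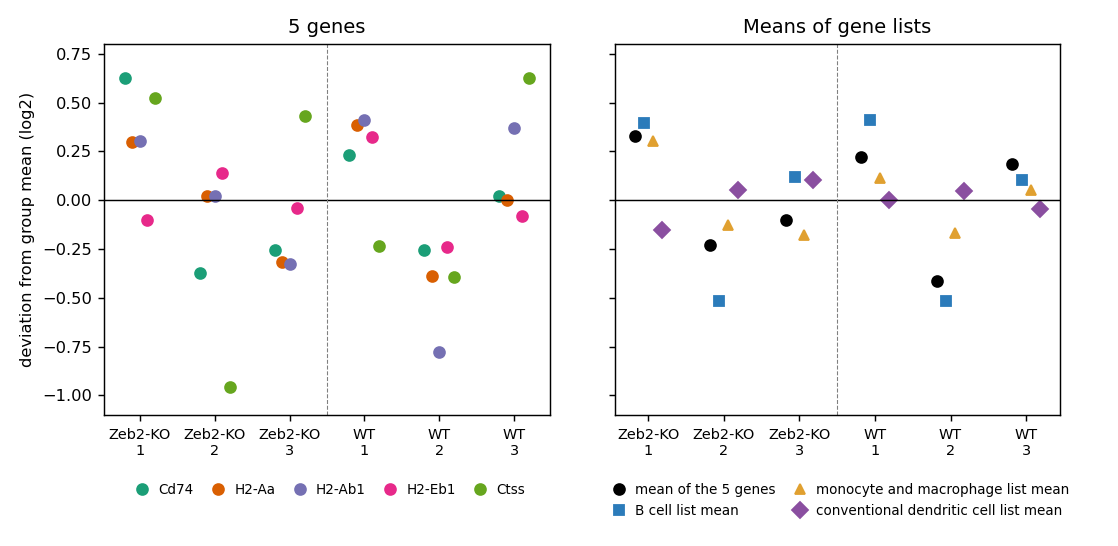
Deviation of each array from the mean of its group on the log2 scale (vertical axis), by array (horizontal axis, Zeb2-KO as labelled left of the dashed line, WT right of it), for the 5 genes in the left panel and for the means of the 5 genes and of 3 marker lists in the right panel. The mean of the 5 genes and the B cell list are lowest together in replicate 2 of each group, and the dendritic cell list runs the other way. Over all probe sets the deviations of replicate 2 also correlated between the groups (0.41).

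Markers of cells that carry class II were read in the same arrays. Of 18 B cell markers 14 were measured, and all 14 lay lower in the arrays labelled Zeb2-KO, with a median difference of -0.83. The mean of this B cell list ran from 6.38 to 7.29 in the arrays labelled Zeb2-KO and from 7.26 to 8.19 in WT. Ms4a1 (CD20) lay at -2.06 and Bank1, a B cell scaffold, at -1.63, and neither passed (limma adjusted p = 0.414 and 0.60). Pou2af1, a coactivator of B cells, lay at -0.87 and Cd22, an inhibitory coreceptor, at -0.91. When the interquartile range was a covariate these 4 genes lay at -1.24, -0.80, -0.52 and -0.51. Within groups the B cell list deviated to the same side as the mean of the class II genes in 5 of 6 arrays, with replicate 2 lowest in each group. Over all probe sets the deviations of replicate 2 correlated at 0.41 between the groups, and those of replicate 1 at 0.36. The groups may therefore not be separate observations of this agreement. None of the 14 passed over all probe sets (limma) and 5, all lower, had an unadjusted p under 0.05, where 1.33% of all probe sets lay lower at that p and 55.4% lay lower at all. This list, like the others, was chosen with earlier results of these data known, so nothing is read from its counts. The part of B cells in the class II values was not tested. In such bulk samples fewer cells of a type and less RNA per cell cannot be told apart.

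The monocyte and macrophage list had 10 of 20 markers measured, 8 of them lower, with a median of -0.25 (0.024 with 4 of 10 lower when the interquartile range was a covariate) and means of 5.86 to 6.34 in the arrays labelled Zeb2-KO against 6.13 to 6.41 in WT. Its within-group deviations had the sign of the class II mean in 6 of 6 arrays, and its gene with the smallest p, the oxidase subunit gene Cybb, lay at -0.82, at 0.0059 in that fit and from -1.33 without WT replicate 2 to -0.49 without WT replicate 3. All 5 measured markers of plasmacytoid dendritic cells, of 11, lay lower (median -0.42, or -0.20 with 4 lower in that fit, list means of 6.46 to 6.93 against 6.94 to 7.41), with the transcription factor genes Spib at -0.71 (-0.26 without WT replicate 1, -0.22 with the covariate) and Irf8 at -0.42 (-0.21 without replicate 2 labelled Zeb2-KO, -0.032 with the covariate). Of 12 markers of conventional dendritic cells 7 were measured, 4 higher and 3 lower, and their mean was 6.14 to 6.40 in the arrays labelled Zeb2-KO and 6.02 to 6.11 in WT, with Dpp4 at 0.99, the receptor kinase gene Flt3 at 0.69, Clec9a at 0.49 and Itgax (CD11c) at -0.37. These 4 lay at 0.39, 0.30, 0.12 and -0.13 with the covariate, and without replicates 1 and 2 labelled Zeb2-KO in turn Clec9a was 0.80 and 0.22 and Flt3 1.05 and 0.53. Markers of T and NK cells (5 of 12 measured) had a median of 0.03, or 0.11 with the covariate, with Nkg7 at 1.12 and Cd3e at -0.28. Without replicate 2 labelled Zeb2-KO Nkg7 was 0.60 and Cd3e -0.090, and Nkg7 was 0.44 with array weights, while Cd3e was 0.047 with the covariate. No marker of these 4 lists passed over all probe sets (limma), and 2 lay at an unadjusted p under 0.05, namely Dpp4 and Nkg7, both higher. Over all probe sets 5.69% lay higher and 1.33% lower at that p, so nothing is read from this count. Deviations of the 3 arrays of a group sum to 0, so a sign count, also that of B cells, does not hold 6 separate agreements. The count was 5 for costimulatory genes and 4 each for plasmacytoid dendritic cells and for T and NK cells. It was 3 for the other class II pathway genes, 2 each for class I and interferon-gamma, 1 for the sorting gate and 0 for conventional dendritic cells. Array intensities have no true zero, so no marker can be called absent, and the part of these cells in the class II values was not tested.

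The spread of the arrays moved with the class II genes as well. The mean log2 intensity of the 5 genes was 9.54, 9.51 and 8.91 in WT replicates 1, 3 and 2, whose interquartile ranges were 1.59, 1.77 and 2.03. In replicates 1, 3 and 2 labelled Zeb2-KO the mean was 8.89, 8.46 and 8.34, at ranges of 1.83, 2.11 and 2.40. In each group the array with the widest spread thus had the lowest class II mean, and the narrowest the highest. This order was not particular to class II. In the same order of replicates Zeb2 rose, at 6.58, 7.34 and 7.51 in WT and 7.79, 8.96 and 9.13 where Zeb2-KO is the label. The B cell list mean fell, at 8.19, 7.88 and 7.26 and at 7.29, 7.02 and 6.38. The monocyte and macrophage list mean did not keep the order where Zeb2-KO is the label (6.34, 5.86 and 5.91). The cause was not tested. With the interquartile range as a covariate the difference was -0.69 in H2-Eb1, -0.52 in Ctss, -0.49 in Cd74, -0.19 in H2-Ab1 and 0.02 in H2-Aa. Each array labelled Zeb2-KO had a wider range than the WT array of the same number, so spread and label cannot be fully told apart. The median of the B cell list was -0.21 in that fit, with 13 of 14 markers lower.

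**Figure D3:**
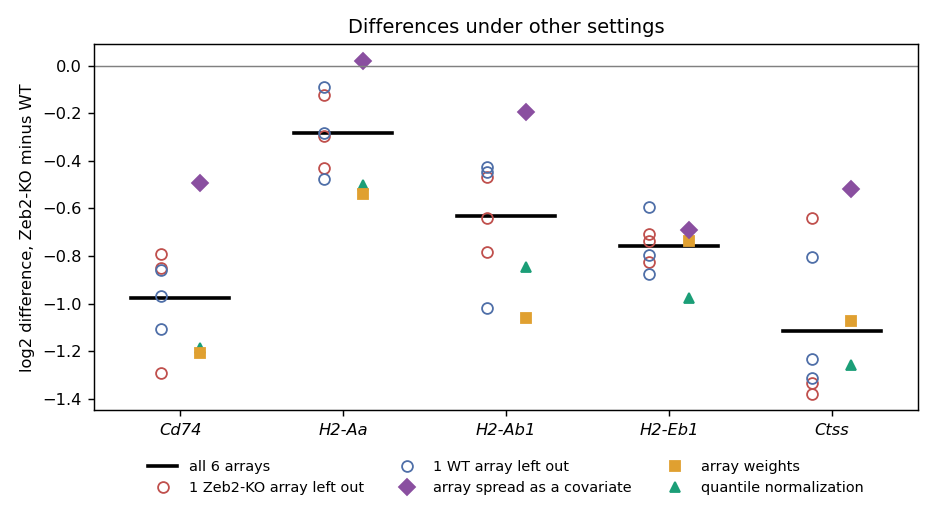
Log2 difference, arrays labelled Zeb2-KO minus WT (vertical axis), for the 5 genes with all 6 arrays (black bars), with 1 array left out (open circles, red for Zeb2-KO as labelled and blue for WT) and under 3 other settings (filled symbols). H2-Eb1 stays between -0.98 and -0.60, and H2-Aa reaches 0.02 when the array spread is a covariate.

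With 1 array left out, all 5 genes stayed lower in the arrays labelled Zeb2-KO. H2-Eb1 ran from -0.88 to -0.60, Cd74 from -1.29 to -0.79, Ctss from -1.38 to -0.64, H2-Ab1 from -1.02 to -0.42 and H2-Aa from -0.48 to -0.09. The values nearest to 0 came without WT replicate 1 for the 3 chain genes and without replicate 2 labelled Zeb2-KO for Cd74 and Ctss. With quantile normalization the difference was -0.98 in H2-Eb1 and -1.26 in Ctss. Such agreement is a description, since the direction was known when the genes were chosen.

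Of 27 other genes of the class II pathway, 18 were measured, and 8 lay lower and 10 higher in the arrays labelled Zeb2-KO, with a median of 0.10. That median was negative with quantile normalization (-0.062), in a fit with the interquartile range as a covariate (-0.067), with array weights (-0.17) and without some arrays, so the list had no settled direction. None of the 18 passed (limma adjusted p, 0 of 18, against 0.0137% of all probe sets), and 5 lay at an unadjusted p under 0.05, 3 lower and 2 higher, where 1.33% of all probe sets lay lower and 5.69% higher at that p. Groups did not overlap in 4 lower and 2 higher genes of the 18, against 6.26% and 6.9% of all probe sets. Under array weights, whose estimation in limma stopped before convergence, 2 passed, H2-Oa and Ctsh (adjusted p = 0.0181 and 0.0259), both lower. In that fit 978 of 14610 probe sets passed. Replicate 3 labelled Zeb2-KO had a weight of 8.22 against 0.38 and 0.65 in replicates 1 and 2. WT replicate 3 had 1.89 against 0.46 and 0.56, so the fit rests largely on 1 array per group.

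H2-Oa, which encodes the alpha chain of H2-DO, an inhibitor of H2-DM best known from B cells, had the largest difference of the list. It stood at 5.75, 6.01 and 5.84 in the arrays labelled Zeb2-KO against 7.55, 7.55 and 6.96 in WT. All arrays of 1 group lay close together and nearly a log2 unit or more below those of the other, at 5.87 ± 0.13 against 7.35 ± 0.34 (SD, n = 3). The values labelled Zeb2-KO lay below the median of every array (6.56 to 6.63). A filter on dim probe sets left H2-Oa out, and the part of its dimness in this closeness was not tested. The difference of -1.49 (SE 0.29), or 2.80-fold, did not pass over all probe sets (limma adjusted p = 0.331, and from 0.0181 to 0.972 over the alternatives). When the interquartile range was a covariate it was -1.59. H2-Ob, the partner chain, stood at 8.996, 7.40 and 7.71 against 7.55, 7.35 and 8.67 in WT, a difference of 0.18 (SE 0.47) with wide overlap that was -0.30 without replicate 1 labelled Zeb2-KO and -0.49 with array weights. Both carry the X and Y pair shown above, as does H2-Eb2, which lay at -0.32, at -0.088 without replicate 2 labelled Zeb2-KO and at -0.031 when the interquartile range was a covariate.

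Among proteases and their partners, Ctsh, a cathepsin with aminopeptidase activity, lay at -0.91 (5.89, 5.83 and 5.91 against 6.76, 6.39 and 7.22 in WT, without overlap). Cst3, cystatin C, an inhibitor of cysteine cathepsins, lay at -0.69, and Ifi30, the lysosomal thiol reductase GILT, at -0.58, both without overlap. Ctsd, an aspartic protease of endosomes, lay at 0.74 (0.49 without WT replicate 1, 0.44 with the covariate), Ctsc at 0.21 and Ctsl at 0.06, while Sppl2a, the membrane protease that removes the last fragment of the invariant chain, lay at -0.34. Without replicates 1 and 2 labelled Zeb2-KO in turn Sppl2a was -0.071 and -0.64, and it was -0.75 with the covariate. Cathepsin genes lay on both sides, and Ctsl and Ctsc were below 0 in some other settings. Limma adjusted p was 0.622 for Ctsh and 0.673 for Cst3 and Ifi30. Ctsh and Ifi30, like H2-Oa, were dim, and the filter on dim probe sets left them out.

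Of the regulators, Ciita, the class II coactivator, stood at 6.38, 5.79 and 6.04 in the arrays labelled Zeb2-KO against 6.70, 6.18 and 6.57 in WT. The groups overlapped, and the difference was -0.41 (SE 0.30, limma adjusted p = 0.673), or -0.28 without replicate 2 labelled Zeb2-KO and -0.064 when the interquartile range was a covariate. The measured DNA-binding factors of the X and Y boxes had differences above 0. Nfya and Nfyb, subunits of NF-Y, lay at 0.79 and 0.68, both without overlap. The groups overlapped in Rfx5 at 0.40 (0.22 without replicate 3 labelled Zeb2-KO), Rfxap at 0.17 (SE 0.33) and Creb1 at 0.13 (SE 0.31). The last 2 were lower in some other settings. Over all probe sets kept by the filter on dim ones, which left out Ciita, Rfx5 and Marchf1, the median difference was 0.18. H2-DMa, a chain of the peptide exchange factor, lay at 0.26 and Marchf1, a ubiquitin ligase that lowers surface class II, at -0.39. H2-DMa was 0.034 without WT replicate 3, 0.078 without replicate 2 labelled Zeb2-KO and 0.098 with the covariate, and Marchf1 ran from -0.58 to -0.23 with 1 array left out and was -0.19 with the covariate. The smallest adjusted p of these regulators was 0.673 (limma).

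**Figure D4:**
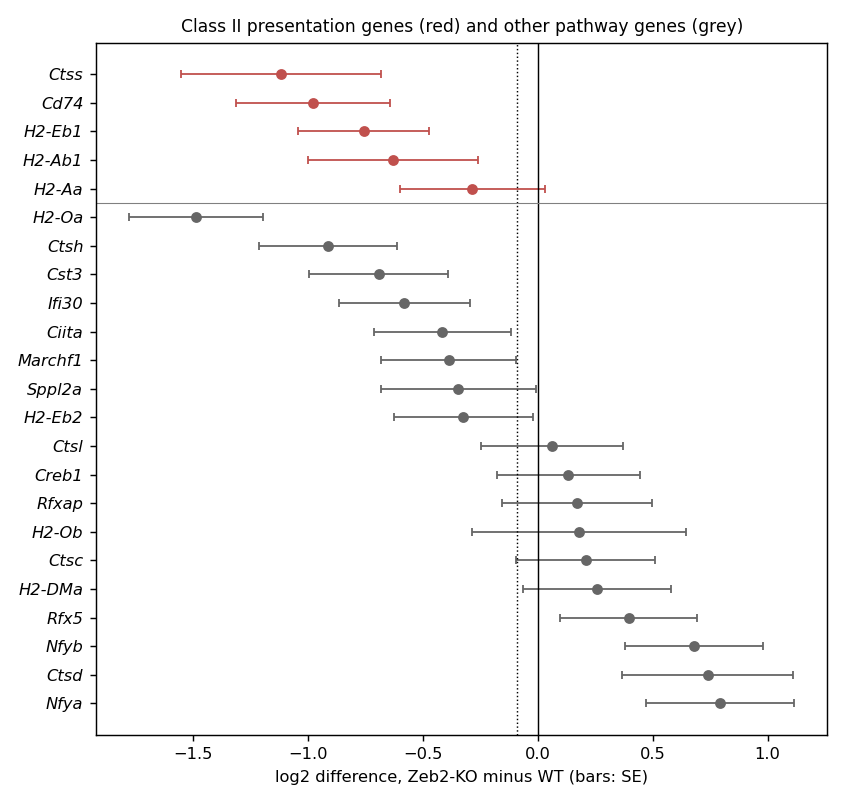
Log2 difference, arrays labelled Zeb2-KO minus WT, with its SE (horizontal axis) for the 5 class II presentation genes (red) and 18 other genes of the pathway (grey), each block in order of the difference. The solid line marks 0 and the dotted line the median of all probe sets (-0.09), and the grey genes run from -1.49 in H2-Oa to 0.79 in Nfya.

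H2-Ab1, H2-Aa and H2-Eb1 follow each other directly in the RefSeq gene order. Over the 9 protein-coding genes before them and the 7 after them, 8 were measured, of which 5 lay lower and 3 higher. They ran from -0.46 in Btnl2 to 0.46 in BC051142, none at an unadjusted p under 0.05 (limma, smallest adjusted p = 0.673). Among them were the class I genes Psmb9 (-0.06), Tap1 (-0.13) and Psmb8 (-0.44), which lie between the H2-DM genes and H2-Ob. The labels give no strain for the group labelled Zeb2-KO. A part of strain in the values of this region therefore cannot be told apart from the label.

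Genes of class I presentation had no settled direction. Of 19 such genes 11 were measured, 5 lower and 6 higher, with a median of 0.15 (-0.21 with 7 lower when the interquartile range was a covariate), no adjusted p under 0.05 and none at an unadjusted p under 0.05 (limma). Psme1, a proteasome activator subunit, lay at 0.59 and Nlrc5, the class I coactivator, at -0.56 in its brightest probe set, or at 0.30 and -0.26 in that fit. Without WT replicate 3 Nlrc5 was -0.29 and Psmb8 -0.073. Of 7 measured genes of the interferon-gamma response, which induces Ciita, 6 lay higher and 1 lower (median 0.36, or 0.03 with 3 lower when the interquartile range was a covariate), with Jak2 at 0.93, Irgm1 at 1.01 and the receptor subunit gene Ifngr2 at -0.88. Without replicate 2 labelled Zeb2-KO Jak2 was 0.49 and Irgm1 0.50, without replicate 1 of that group Irgm1 was 1.60, and with the covariate they were 0.19 and 0.17. Ifngr2 was -1.32 without WT replicate 2, -0.51 without WT replicate 3 and -0.56 with the covariate. None of these passed (limma adjusted p = 0.673 for each). The 4 measured costimulatory genes, of 9, lay lower (median -0.34, or -0.074 with 3 of 4 lower when the interquartile range was a covariate), with Cd83, a protein that stabilises surface class II, at -1.005 and Cd40 at -0.42 (limma adjusted p = 0.673 for both). Cd83 stood at 7.51, 6.93 and 6.71 against 8.83, 7.25 and 8.09 in WT, again with WT replicate 2 lowest of its group, and its difference was -0.62 without WT replicate 1 and -0.37 with the covariate. Cd40 was -0.24 without WT replicate 1 and -0.045 with the covariate.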

How the data were processed

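Amplified, biotin-labelled RNA of 6 sorted samples was put on 1 array each, per the labels' protocols. The deposited values are 1 intensity per probe set and array, made by the authors with RMA per the submitters' processing notes (version not given in the sources used here), and their range shows a linear scale, so log2 was taken. Of 20220 probe sets, 5610 with identifiers below the first annotated one were left out as controls, decided once the table was known, and 14610 were tested, 11229 with 1 symbol, 766 with several and 2615 with none in the platform annotation. Of the single symbols 11184 were found by gene identifier in RefSeq (GRCm38.p6).

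Groups, taken from the titles, were compared by lmFit and eBayes of limma (version 3.58.1, R version 4.3.3) without covariates, with Benjamini-Hochberg adjustment over all 14610 probe sets and a threshold of 0.05. The procedure was tested on simulated data. A gene with several probe sets was represented by the brightest, and all 5 members passed the filter used for similar profiles (median mean log2 intensity 6.63). Named genes are the members, Zeb2, every measured gene of the class II pathway list, up to 4 with the smallest p of each other list, the 8 nearest profiles and, chosen after their values were seen, neighbours of the H2 genes. Alternatives were a dim filter, quantile or median scaling, other variance priors, array weights, the array spread or the replicate number in the model, and each array left out. Members and lists were chosen with earlier results of these data known. Arrays carry no depth, and their number limits the precision.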

Additional observations from a re-analysis of the deposited data

How the results depend on the processing

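The count of probe sets past the threshold, 2 in the fit reported, was 1 with the filter on dim probe sets, 1 when the interquartile range was a covariate, 1 with only probe sets that have a gene in the annotation (chosen after seeing the data) and 978 with array weights. The array weights, whose estimation stopped before convergence, were largest by far in replicate 3 of each group. With 1 array left out the count ran from 2 to 18, with 5 without Zeb2-KO replicate 1, 10, 18 and 9 without WT replicates 1, 2 and 3. The median difference of the other class II pathway genes, 0.10, was 0.18 with the dim filter (11 genes left), -0.062 with quantile normalization, -0.17 with array weights, -0.067 when the interquartile range was a covariate, and -0.10 to 0.15 with 1 array left out. With the dim filter the median of all probe sets kept was 0.18 as well. Of the 11 genes 2 lay lower and 9 higher, and H2-Oa, Ctsh, Ifi30, Ciita, Rfx5, Marchf1 and H2-Eb2 were left out as dim. The cause of these changes was not tested. The median of the 5 members ran from -1.02 to -0.60 with 1 array left out and otherwise from -1.06 to -0.49, and each member lay lower under every alternative except H2-Aa, at 0.02, when the interquartile range was a covariate. Arrays with the same replicate number had within-group deviations that correlated at 0.36, 0.41 and 0.047, so the third pair did not show pairing, although each array correlated best with its own number. With the replicate number as a block the count was 0 of 14610, with 2595 at an unadjusted p under 0.05 (limma) against 1025 without it.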
